A study of Caenorhabditis elegans with 2 samples.

Results

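The regions described here are binding summits of the nuclear receptor NHR-6 that lie between neighbouring Caenorhabditis elegans genes read in the same direction. A summit is the position of highest signal within a peak. It was kept when it fell outside every protein-coding gene, when the nearest protein-coding genes on its left and right were on the same strand, and when it lay within 1000 bp upstream of the annotated 5′ end of the downstream gene. This rule uses positions alone and no measured value. It gave 577 of the 2720 summits of the thresholded list (21.2%), and very short gaps such as those within operons were not left out. Of the other summits, 793 (29.2%) lay as close to a 5′ end but between genes pointing away from each other, and these divergent summits serve as the comparison. A further 744 (27.4%) lay inside protein-coding genes, 340 (12.5%) lay between tandem genes beyond the limit, 193 (7.10%) lay in divergent gaps beyond it, 72 (2.65%) lay between convergent genes, and 1 lay beyond the last gene of a chromosome.

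The assay was ChIP-seq, in which chromatin bound by a protein is immunoprecipitated and its DNA sequenced, and the material was whole L4 larvae, the last larval stage, of mixed sex. All worms were of strain OP90, with the mutation unc-119(ed3) III and the integrated transgene wgIs90, which carries nhr-6 fused to eGFP. The 2 biological replicates form a single group with no other condition, so nothing here compares treatments or genotypes. The tagged protein comes from an added copy of the gene, and a signal from whole animals cannot be assigned to a tissue. The relaxed list of replicate 1 held 26801 peaks and that of replicate 2 held 30000. The files hold peak positions and the authors' signal value for each peak, and no expression value, so the labelled stage and sex could not be checked against marker genes. Read depth is unknown.

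In a compact genome such as that of the worm, the sequence between tandem genes holds the end of the upstream gene and the promoter of the downstream gene, often within a short stretch. In operons, tandem genes are transcribed together from 1 promoter, and the joint transcript is cut into separate mRNAs by polyadenylation and by trans-splicing of a short leader RNA. Because the leader replaces the start of the transcript, the annotated 5′ end of a trans-spliced gene can be the splice site rather than the place where transcription begins. NHR-6 belongs to the NR4A nuclear receptors, which are known to bind DNA as monomers at an extended form of the nuclear receptor core site.

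The summit sequences of the 6 strongest members for which sequence is shown here give a view of what the immunoprecipitation centred on. Each is the 101 bp around the summit, cut back to the gap where a gene begins or ends inside it, and read in the direction of the genes. The sequence was read from the RefSeq assembly WBcel235, which is build ce11. Capitals mark GAGAGA, called a GA repeat here, the words CGTCTC and GACGCA and also ACGCAG, and the NR4A monomer site AAAGGTCA, each on either strand. The windows lie at chrII:3786684-3786776 (plus strand) for T24E12.13, chrII:10563514-10563614 (minus strand) for cdc-48.1, chrIII:3867516-3867616 (plus strand) for rpl-3, chrV:14347402-14347502 (plus strand) for cept-2, chrV:12343694-12343794 (minus strand) for tomm-20 and chrV:15189690-15189790 (plus strand) for cyn-3. The names are those of the downstream genes.
T24E12.13: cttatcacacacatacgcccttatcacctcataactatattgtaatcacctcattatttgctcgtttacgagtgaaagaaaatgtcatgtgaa
cdc-48.1: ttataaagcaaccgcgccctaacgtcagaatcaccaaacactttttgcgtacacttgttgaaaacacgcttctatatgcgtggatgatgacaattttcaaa
rpl-3: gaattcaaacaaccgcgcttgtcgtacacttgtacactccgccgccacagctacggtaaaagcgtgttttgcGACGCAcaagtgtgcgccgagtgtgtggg
cept-2: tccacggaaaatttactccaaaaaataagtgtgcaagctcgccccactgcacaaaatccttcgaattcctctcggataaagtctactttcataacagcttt
tomm-20: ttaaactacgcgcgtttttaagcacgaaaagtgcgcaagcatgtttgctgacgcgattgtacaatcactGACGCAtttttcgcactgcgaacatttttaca
cyn-3: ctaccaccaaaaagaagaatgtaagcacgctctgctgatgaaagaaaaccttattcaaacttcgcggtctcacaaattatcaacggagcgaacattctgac
Of these 6 windows, those of rpl-3 and tomm-20 hold GACGCA, and no window holds any other of the marked sites.

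Short gaps are shown next, because there the summit must lie close to 2 genes. Besides cyn-3, whose gap to bath-36 is 338 bp, the strongest members shown in gaps of at most 500 bp were eelo-2, in a gap of 380 bp at chrIV:17249852-17249952 (plus strand), and his-37, in a gap of 263 bp at chrV:9546976-9547076 (plus strand). The gene his-37 encodes a core histone.
eelo-2: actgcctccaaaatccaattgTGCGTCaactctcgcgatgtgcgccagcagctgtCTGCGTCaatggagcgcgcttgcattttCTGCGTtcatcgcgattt
his-37: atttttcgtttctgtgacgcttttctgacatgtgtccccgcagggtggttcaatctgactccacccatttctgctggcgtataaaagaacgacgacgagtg
The eelo-2 window holds GACGCA and ACGCAG, both read on the opposite strand, and the his-37 window holds none of the marked sites.

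The last set was chosen after the values were seen, to show the marked sites where they occur. These are members with a GA repeat, with CGTCTC and with GACGCA and with ACGCAG at once, and with the NR4A monomer site, not always the strongest ones. They are atfs-1, a transcription factor of the mitochondrial unfolded protein response, at chrV:14193544-14193644 (plus strand), aipl-1 at chrV:15136922-15137022 (minus strand), asb-2, a subunit of the mitochondrial ATP synthase, at chrX:4469467-4469567 (plus strand), Y73C8B.2 at chrV:3195213-3195313 (minus strand) and F37C4.5 at chrIV:3874678-3874778 (minus strand).
atfs-1: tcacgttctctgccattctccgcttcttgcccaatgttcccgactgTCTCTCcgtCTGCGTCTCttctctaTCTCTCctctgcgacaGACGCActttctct
aipl-1: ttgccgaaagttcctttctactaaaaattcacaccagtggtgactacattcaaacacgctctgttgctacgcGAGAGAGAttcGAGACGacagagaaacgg
asb-2: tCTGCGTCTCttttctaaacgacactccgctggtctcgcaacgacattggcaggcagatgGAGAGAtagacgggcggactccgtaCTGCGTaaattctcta
Y73C8B.2: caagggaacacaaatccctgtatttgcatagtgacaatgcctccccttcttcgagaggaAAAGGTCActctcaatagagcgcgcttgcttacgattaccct
F37C4.5: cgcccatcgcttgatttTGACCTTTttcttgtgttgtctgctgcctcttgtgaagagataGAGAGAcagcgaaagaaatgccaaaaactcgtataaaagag
GACGCA and ACGCAG share 5 letters, so that 1 stretch of GACGCAG counts for both, and the GA repeat and CGTCTC can share the letters GAGA read on opposite strands. The atfs-1 and asb-2 windows run through CTGCGTCTC, in which ACGCAG overlaps with GACGCA and this with CGTCTC. The NR4A monomer site always contains the nuclear receptor core AGGTCA. It lies on the sense strand at Y73C8B.2 and on the opposite strand at F37C4.5. The member of F55G11.8 also has this site and is not shown, though its signal of 57.2 is above the 44.8 of F37C4.5.

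The first question was how often a gap between tandem genes holds a summit at all. Of the 10152 tandem gaps in the annotation, 568 held a member, which is 5.59%. Of the 4210 divergent gaps, 760 held a summit within the same limit, which is 18.1%. A divergent gap has 2 promoters, so the comparison was also made per base. The 577 members lay in 6.86 Mb of sequence that the rule would admit, a density of 8.41 summits per 100 kb. The 793 divergent summits lay in 5.39 Mb, a density of 14.7 per 100 kb. Over all bases within the limit, the tandem density was 0.572 times the divergent one (two-sided exact binomial test on sequence length, p = 9.48e-25). Per 100 annotated 5′ ends there were 5.68 tandem and 9.42 divergent summits. Peaks and genes are not replicates, so the tests here and in what follows do not measure the spread between worm cultures, and intervals cover counting error only.

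The share of tandem gaps with a member varied with gap length, here in classes that end at 200, 500, 1000 and 2000 bp, with the upper end included. In gaps of 1 to 200 bp, which include the short gaps typical of operons, 28 of 1867 gaps had a member (1.5%, Wilson 95% interval 1.04 to 2.16%). In gaps of 200 to 500 bp, 148 of 1659 had one (8.92%, 7.64 to 10.4%). The share was 7.29% (6.23 to 8.51%) in gaps of 500 to 1000 bp, 6.23% (5.19 to 7.46%) in gaps of 1000 to 2000 bp and 4.76% (4.03 to 5.60%) in longer ones. Thus the shortest gaps had the lowest share and those of 200 to 500 bp the highest, and the intervals of these classes did not overlap. Divergent gaps gave 13%, 28.3%, 23.1%, 15.8% and 13.5% in the same classes, above the tandem share in each. Short gaps also hold less sequence, and per base the picture differed: members lay at 14.1 per 100 kb in gaps of 1 to 200 bp, 25.9 in those of 200 to 500 bp, 10 in those of 500 to 1000 bp, 6.52 in those of 1000 to 2000 bp and 4.83 in longer ones. Per base, then, the shortest gaps came after those of 200 to 500 bp and ahead of the longer classes. No test was run between gap classes.

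**Figure D1:**
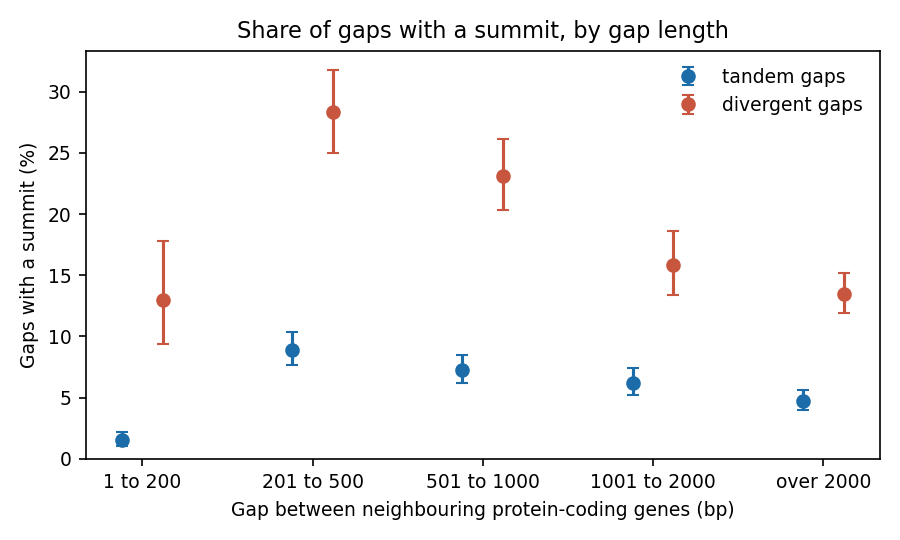
Share of gaps (%, vertical axis) that held a summit within 1000 bp upstream of a 5′ end, by gap length in bp (horizontal axis), for tandem gaps (blue) and divergent gaps (red). Points are shares and bars Wilson 95% intervals; the tandem share runs from 1.5% in the shortest gaps to 8.92% in gaps of 200 to 500 bp, and each divergent share lies above the tandem share of its class.

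By the rule, every member lies within 1000 bp of the 5′ end of the downstream gene, so closeness to it is in part imposed. Within that limit, the median distance of members upstream was 246 bp (quartiles 142 and 449 bp, range 3 to 999 bp). Of the members, 40.7% lay within 200 bp and 79.0% within 500 bp. Divergent summits were a median of 179 bp (quartiles 101 and 294 bp) from the nearer of their 2 ends, a measure that is shorter by construction. The density of members was 9.48 per 100 kb within 100 bp of the 5′ end, 16.3 at 100 to 200 bp, 13.7 at 200 to 300 bp and 9.71 at 300 to 400 bp. Beyond 400 bp it stayed between 3.70 and 5.82 per 100 kb. Divergent summits had their highest density, 33.2 per 100 kb, at the same distance of 100 to 200 bp. Beyond 700 bp the tandem density was the higher one, at 5.63, 3.70 and 4.59 per 100 kb against 3.94, 2.37 and 2.53. Over all gap lengths, both kinds of promoter thus had their highest density in the same bin, and the tandem density there was the lower one. Single classes of tandem gaps differed. Of the bins within 500 bp, that of 200 to 300 bp was highest in gaps of 500 to 1000 bp (17.4) and over 2000 bp (8.39). In gaps of 1000 to 2000 bp it equalled that of 100 to 200 bp (10.9).

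**Figure D2:**
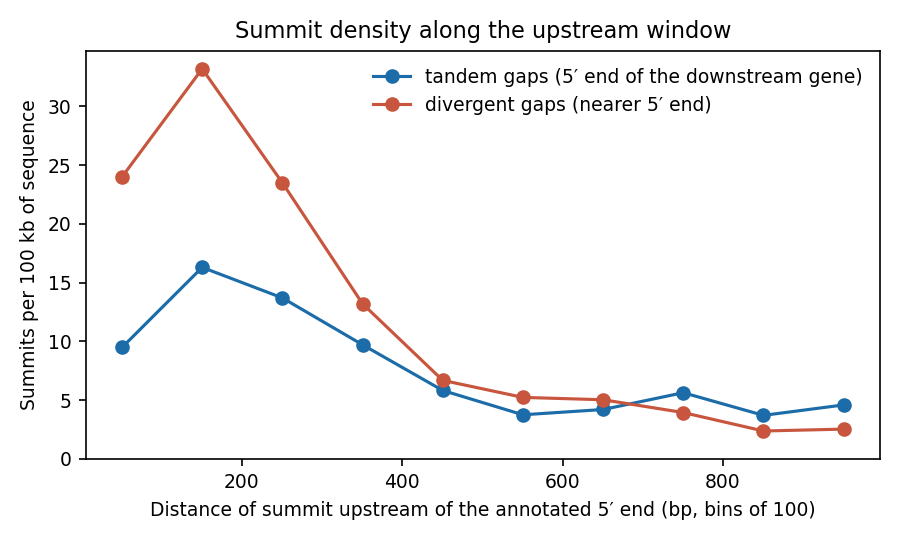
Summits per 100 kb of sequence (vertical axis) in bins of 100 bp upstream of the annotated 5′ end (horizontal axis, bp), for tandem gaps (blue) and divergent gaps (red, nearer 5′ end). Both curves are highest at 100 to 200 bp, at 16.3 and 33.2 per 100 kb.

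The position of members changed with the room they had. The median distance upstream was 56.5 bp in gaps of 1 to 200 bp, 162.5 bp in those of 200 to 500 bp, 288 bp in those of 500 to 1000 bp, 348.5 bp in those of 1000 to 2000 bp and 392 bp in longer ones. A short gap admits only short distances, so the density in 1 bin is the fairer measure. At 100 to 200 bp upstream, gaps of 200 to 500 bp held 73 members, 44.0 per 100 kb (exact Poisson 95% interval 34.5 to 55.3). The same stretch held 12.9 per 100 kb (8.42 to 18.9) in gaps of 500 to 1000 bp, 10.9 (6.54 to 17) in those of 1000 to 2000 bp and 6.64 (4 to 10.4) in longer ones. In the shortest gaps it held 4 members, 11.2 per 100 kb (3.05 to 28.7). At this distance from a gene's start, the density was thus highest in gaps of 200 to 500 bp, and the shortest gaps did not share it. Within 100 bp of the 5′ end, where the shortest gaps held 24 members, the picture differed. There they had 14.8 per 100 kb (9.45 to 21.9), close to the 17.5 (11.7 to 25.1) of gaps of 200 to 500 bp. The longer classes had 7.93, 8.58 and 3.5, in order of length. The interval of the shortest gaps overlapped those of all classes but the longest. The distance from the end of the upstream gene had a median of 467 bp over all members, and 58 of them (10.1%) lay within 100 bp of it. The peak interval itself, with a median width of 316 bp, reached into the downstream gene for 163 members (28.2%), into the upstream gene for 111 (19.2%) and into both for 50 (8.67%).

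In gaps of at most 1000 bp every position was admitted, so these could be asked whether summits favour the start of the downstream gene or the end of the upstream gene. There were 325 such members, and 1, that of dbt-1, lay 145 bp from either gene and was left out. Of the other 324, 178 lay nearer the downstream 5′ end, a share of 54.9% (49.5 to 60.3%) that did not pass the test against an even split (two-sided exact binomial test, p = 0.0849). With the strongest peaks of 1 replicate in place of the joint list, the share was 56.6% (exact p = 0.0316) for replicate 2 alone and 57.1% (exact p = 0.0153) for replicate 1 alone, so this call depends on which list is used.

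The upstream limit of the rule cuts through a range where summits are sparse. Just inside it were the members of rhy-1, 999 bp upstream with a signal of 30.1, and of F10B5.3, 994 bp upstream with a signal of 28.8. Just outside it were summits 1005 bp upstream of C38H2.2, with a signal of 30.6, and 1007 bp upstream of adah-1, with a signal of 53.1.

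The strength of members was close to that of the whole list. The signal value of a peak is the authors' own, on a scale that the sources do not state, and it serves only to rank peaks within 1 list. Members had a median of 40 (quartiles 32.6 and 53.3, range 27.6 to 199.2), divergent summits a median of 42.7 and all thresholded summits 39.1. With the list cut by rank into 4 equal parts, from the strongest to the weakest, members were 23.2%, 21.6%, 20.9% and 19.1% of the summits, against 37.8%, 31.2%, 24.3% and 23.4% for divergent ones. The median signal by gap class ran from 37.8 to 41.9.

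The strongest member lay upstream of T24E12.13, with a signal of 199.2 and rank 5 of the list. Its signal was 114.8 (rank 4) in the list of replicate 1 and 86.7 (rank 9) in that of replicate 2. It is 725 bp upstream of the annotated 5′ end and only 43 bp past the end of T24E12.1. The next was upstream of cdc-48.1, which encodes the AAA ATPase that extracts ubiquitinated proteins for degradation, with a signal of 193.1, and 91.7 (rank 7) and 103.4 (rank 5) in the replicates. It was followed by rpl-3, a protein of the large ribosomal subunit, with a signal of 167.8, and 87.8 (rank 10) and 83.2 (rank 11) in the replicates. These 3 members were thus near the top of both replicate lists. Next came cept-2, a choline or ethanolamine phosphotransferase by its name, at 161.0 (ranks 12 and 8), and tomm-20, an import receptor of the mitochondrial outer membrane, at 158.8 (ranks 28 and 10). The cyclophilin gene cyn-3 had 148.9 (ranks 56 and 13), and wwp-1, a HECT-type ubiquitin ligase, had 142.9 (ranks 6 and 38). Each of the 7 strongest members therefore ranked within the first 56 peaks of both replicates.

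The other strong members lay upstream of genes with varied roles. Protein quality control and turnover were represented by rpt-1, an ATPase of the proteasome, at 114.9, by the cyclophilin cyn-1 at 92.4 and by ubc-7, a ubiquitin-conjugating enzyme, at 89.3. The ribosome and the nascent chain were represented by rpl-11.2 at 112.2 and by icd-2, a subunit of the nascent polypeptide-associated complex, at 96.6. Mitochondrial genes among them were atfs-1 at 103.6, dld-1, the dihydrolipoamide dehydrogenase, at 91.7, and asb-2 at 89.4. Others were snr-4, an Sm protein of spliceosomal particles, at 104.2, tba-2, an alpha-tubulin, at 104.0, his-37 at 112.5, vig-1, which encodes a component of the RNA-induced silencing complex, at 106.5, and egl-30, a Gq alpha subunit, at 93.4. The 25 strongest were completed by eelo-2 at 119.9, cpr-3, a cathepsin B-like protease, at 114.3, egg-5, which acts in the oocyte-to-embryo transition, at 102.1, aipl-1 at 95.4 and F36A2.7 at 91.5. Replicate ranks in this group were less even than at the top: ubc-7 was rank 377 in replicate 1 and 58 in replicate 2, and asb-2 was rank 64 and 368.

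In gaps of at most 200 bp, the median signal of the 28 members was 41.1, within the 37.8 to 41.9 of the gap classes. The strongest members there had lower signals than those named above, but this class has the fewest members. The highest was upstream of Y39B6A.43, with a signal of 80.8 in a gap of 75 bp, ranked 352 and 107 in the replicates. The gene C47E8.11, which follows hsp-90 after a gap of 70 bp, had 74.3 (ranks 417 and 120), pafo-1 had 66.2 in a gap of 148 bp (ranks 1324 and 192), C50B8.5 had 65.8 in a gap of 167 bp (ranks 4200 and 54), and Y46E12BL.2 had 65.2 in a gap of 143 bp (ranks 182 and 780). These members were named after their values were seen. Their summits lay 22 to 85 bp from the downstream gene and the peaks are wider than, or nearly as wide as, the gaps, so which of the adjoining sequences was bound is not resolved here. At C50B8.5 the ranks of the replicates lay far apart, and the member rests mainly on replicate 2.

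The replicates supported members unequally. Of the 577 members, 322 (55.8%, 51.7 to 59.8%) overlapped, by at least 1 bp, a peak among the 2720 strongest of each replicate, and 32 (5.55%) overlapped none of the strongest of either. For divergent summits the first share was 62.3% (58.9 to 65.6%). The odds for members were 0.764 times those for divergent summits (two-sided Fisher's exact test, p = 0.0166). With 0.5 times as many strongest peaks, the odds ratio was 0.765 (exact p = 0.0264). When the overlap had to cover 0.5 of both peaks, the odds ratio was 0.823 and the test was not passed (exact p = 0.0800). Against all other thresholded summits, of which 55.1% were strong in both, the odds ratio was 1.03 (exact p = 0.777). That set includes the divergent summits. The lower share of members was thus seen beside divergent summits and not beside this mixed set, and members were not compared with the other classes alone. Some overlap follows from how the thresholded list was derived, since both replicates went into it. Over the 566 members with a peak in both relaxed lists, Spearman's rho between the replicates' signals was 0.294; this is a description across peaks, and the choice of peaks strong in the joint list limits its range. There was no peak in replicate 1 for 7 members and none in replicate 2 for 4.

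**Figure D3:**
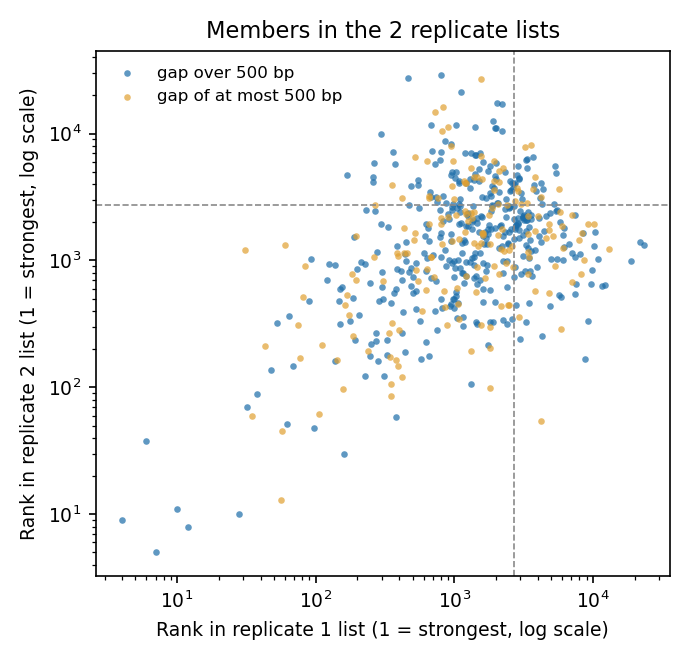
Rank of each matched member in the list of replicate 1 (horizontal, log scale) and replicate 2 (vertical, log scale), where rank 1 is the strongest peak. Blue points are members in gaps over 500 bp, orange points those in gaps of at most 500 bp, and the dashed lines mark rank 2720; the median ranks were 1382.5 and 1432, and the few strongest members lie at the lower left in both replicates.

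Gaps could also be counted from each replicate alone. The 2720 strongest peaks of replicate 1 gave 545 tandem gaps with a summit within the limit, and those of replicate 2 gave 527. They shared 316 gaps, which is 58.0% of the first set and 60.0% of the second. Of the 568 gaps of the joint list, 304 (53.5%) were found with all 3 lists.

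Members were found on all 6 chromosomes. The share of tandem gaps with a member was 5.66% on I, 6.31% on II, 6.45% on III, 4.77% on IV, 4.33% (3.62 to 5.17%) on V and 7.17% (5.95 to 8.62%) on X. The intervals for V and X did not overlap; no test was run between chromosomes.

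A gap rarely held more than 1 member. There were 9 gaps with a pair of members. In the gap before snr-4, summits lay 345 and 562 bp upstream with signals of 104.2 and 42.5. The gap before bet-2, a bromodomain gene, had summits 194 and 685 bp upstream (69.8 and 31.1), that before sor-1, a repressor of Hox genes, had summits at 437 and 843 bp (49.2 and 41.5), that before the zinc-finger gene ztf-13 at 252 and 902 bp (52.5 and 34.4), and that before lgg-1, which acts in autophagy, at 230 and 887 bp (38.7 and 46.1). Over all 9 pairs, the summit nearer the downstream gene was the stronger in 6.

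Members also occurred in consecutive gaps. For 294 of the gaps with a member, the upstream gene is itself the downstream gene of another tandem gap, and in 29 of these (9.86%, 6.96 to 13.8%) that gap held a member as well. For gaps without a member the count was 302 of 5192 (5.82%). The strongest such runs were on chromosomes I and V. On chromosome I, psf-3, icd-2 and wwp-1 had signals of 96.6 before icd-2 and 142.9 before wwp-1. On chromosome V, a run went from cyl-1 through mans-2 and rpt-1 to snr-4. Its signals were 45.8 before mans-2, 114.9 before rpt-1 and 104.2 before snr-4. A further run went from bath-36 through cyn-3 and Y75B12B.11 to plc-2, a phospholipase C, with signals of 148.9, 89.0 and 56.8 before the last 3 genes. Another run went from C33H5.13 through rsp-6 and imp-3 to tag-322, with signals of 56.0, 31.5 and 33.6 before the last 3 genes. These counts are descriptions with no test.

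The downstream genes were then grouped by name into 22 lists. Of the 568 genes, 107 (18.8%) were in a list, beside 1810 of the 10152 downstream genes of all tandem gaps. Being in any list was thus about as common among members as among all tandem gaps. The counts are descriptions, each to be read beside the 5.59% over all tandem gaps. Ribosomal protein genes stood highest: 18 of the 26 that follow a tandem gap had a member (69.2%, 50 to 83.5%), and the median signal was 53.2. Besides rpl-3 at 167.8 and rpl-11.2 at 112.2 they included rpl-41.2 at 75.5, rpl-6 at 69.5 and rps-4 at 60.3, and the weakest was rpl-29 at 33.0. Of these 18, those of rps-7 and rps-11 alone ranked beyond 2720 in a replicate, at 3437 and 6088 in replicate 1. Translation factors had 7 of 17 (41.2%), led by eif-3.B at 76.9, eef-1A.2 at 64.8 and ife-2 at 52.7. The mitochondrial ribosomal protein genes gave 4 of 31 (12.9%, 5.13 to 28.9%), with mrpl-15 at 41.3, mrps-16 at 33.3 and mrpl-32 at 30.1, and the aminoacyl-tRNA synthetases gave 1 of 13, vars-1 at 28.3 (7.69%, 1.37 to 33.3%), so that both intervals include the background.

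Genes of protein folding and turnover formed a second group. Proteasome subunits gave 3 of 10, rpt-1 at 114.9, rpn-13 at 40.4 and rpn-11 at 37.1. Ubiquitin conjugation gave 10 of 28 (35.7%), led by wwp-1, ubc-7 and ufd-3 at 142.9, 89.3 and 55.8. Chaperones and cyclophilins gave 8 of 40, led by cyn-3, cyn-1 and dnj-9 at 148.9, 92.4 and 77.6. Splicing factors and snRNP proteins gave 6 of 19 (31.6%), with snr-4 at 104.2, snrp-3 at 58.0 and rsp-6 at 56.0. Nuclear pore and transport genes gave 4 of 10, and the 4 were importins, among them ima-2 at 68.1, imb-3 at 41.1 and imb-2 at 39.1. Each of these lists has few tandem genes, so the intervals are wide, as in 10.8 to 60.3% for the proteasome.

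Further lists of genes used in most cells gave shares whose intervals lay above the background in some cases and included it in others. The respiratory chain and ATP synthase gave 7 of 21 (33.3%, 17.2 to 54.6%), with asb-2 at 89.4, ucr-2.2 at 65.7 and nduf-11 at 52.7. Vesicle trafficking gave 8 of 44 (18.2%, 9.51 to 32%), with snx-1 at 52.0, sec-3 at 51.1 and vps-35 at 40.9, and the V-ATPase gave 1 of 10, vha-15 at 47.5, with an interval of 1.79 to 40.4% that includes the background. RNA polymerase II, TFIID and Mediator gave 4 of 29 (13.8%, 5.50 to 30.6%, again including it), with taf-12 at 72.4, taf-10 at 34.0 and rpb-8 at 29.9. The cell cycle and DNA replication list gave 4 of 19 (21.1%, 8.51 to 43.3%), with cdc-48.1 at 193.1, the replication clamp pcn-1 at 51.5 and the cyclin D gene cyd-1 at 30.4. The pattern of that list takes in cdc-48.1 and cdc-73 by their names alone, and the known role of CDC-48 is in protein degradation. The histone list gave 2 of 5, his-37 at 112.5 and his-24, a linker histone that its name pattern takes in, at 61.1.

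Of the 7 lists of large or regulatory gene families, the chemoreceptors alone had an interval that lay wholly below the background. Of 833 chemoreceptor genes after a tandem gap 1 had a member (0.120%, 0.0212 to 0.677%), srz-62 at 52.3. Of 81 cuticle collagen genes 1 had one, col-185 at 40.9 (1.23%, 0.218 to 6.67%), and of 77 neuropeptide genes 1 had one, ins-39 at 70.4 (1.30%, 0.230 to 7%). None of the 44 homeobox genes had a member, an upper limit of 8.03%, so a share near the background could not be told from none in that list. C-type lectins gave 4 of 128 (3.12%, 1.22 to 7.76%), with clec-4 at 44.7, clec-78 at 35.9 and clec-66 at 33.3, and F-box genes 6 of 167 (3.59%, 1.66 to 7.62%), with fbxb-72 at 77.6, fbxa-74 at 62.1 and fbxc-29 at 54.9. Nuclear hormone receptor genes gave 7 of 158 (4.43%, 2.16 to 8.86%), with nhr-207 at 61.1, nhr-154 at 56.2 and nhr-206 at 55.1. The interval for the receptor family, of which NHR-6 itself is a member, thus includes the background.

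The sequence just before the downstream gene differed between gaps with and without a member. The letters TTTCAG, the usual end of a worm splice acceptor, stood immediately before the annotated 5′ end in 149 of 568 gaps with a member (26.2%, 22.8 to 30%) and in 1133 of 9584 gaps without (11.8%, 11.2 to 12.5%). In gaps of at most 500 bp the shares were 29.5% and 12.9%, and in longer gaps 24.7% and 11.2%. Among divergent genes the share was 19.7% for genes nearer a summit and 12.2% for the others. This count was added after the data were seen and carries no test. At such genes the distance from the annotated 5′ end may not be the distance from the start of transcription.

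Noncoding genes lay near some members. The summit fell inside a noncoding gene other than a piRNA gene for 29 members (5.03%). Within 200 bp there was an unclassified ncRNA gene for 57 members (9.88%, against 14.8% of divergent summits), a snoRNA gene for 8 (1.39%, and 1.39% of divergent summits), a tRNA gene for 6 (1.04%, against 1.51%) and an snRNA gene for 6 (1.04%, against 0.126%). The members of snr-4 and egg-5 each have an snRNA gene within 200 bp, and that of Y75B12B.11 has a snoRNA gene. Whether binding there belongs to the noncoding or to the protein-coding gene was not tested.

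Base composition differed between the summit and its flanks. The median GC content was 45.5% in the 101 bp around the summit. It was 32.7% in a window of the same size centred 300 bp upstream and 35.6% in that centred 300 bp downstream. Divergent summits had a median of 47.5%. In gaps of 1 to 200 bp the median at members was 42.6%, in those of 200 to 500 bp 44.6%, and in each longer class 46.5%. Flanking windows reach into the neighbouring genes, more so in short gaps. Members lay a median of 246 bp upstream of the 5′ end, so the downstream window was centred past that end for most of them. The median was 288 bp in gaps of 500 to 1000 bp, so leaving out gaps of at most 500 bp does not remove this. Of the motifs described next, 18 differed from both flanks over all members and 14 did so over members in gaps longer than 500 bp alone.

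For 24 short motifs, the share of members with a match on either strand within 50 bp of the summit was compared with both flanks. Exact McNemar tests were run, the larger p of the flanks was taken, and p was adjusted by Benjamini-Hochberg over the 24. Several of these motifs are short words that earlier counts had ranked high at these same summits. For those words, a rise at the summit and its p-value are no independent finding. Of the 24, 12 (50%) were more frequent at the summit and 6 (25%) were less frequent. GAGAGA was found at 131 members (22.7%, 19.5 to 26.3%), against 5.55% of upstream and 5.72% of downstream flanks (adjusted exact p = 9.95e-16). Among all 2720 thresholded summits the share was 27.3%, and in 6974 tandem gaps without a summit, in a window of the same size 246 bp upstream of the 5′ end, it was 5.36%. These 6974 gaps are fewer than the 9584 without a member, and no comparison with them was made by gap length. GACGCA was found at 18.7%, against 1.91% and 1.04% (adjusted exact p = 4.43e-21), with 16.5% of all summits and 2.17% of gaps without. ACGCAG was found at 18.9%, against 1.39% and 1.56% (adjusted exact p = 2.12e-22), with 16.7% and 2.38% in those sets, and CGTCTC at 18.5%, against 1.04% and 2.77% (adjusted exact p = 1.64e-17), with 19.0% and 2.67%. At least 1 of these 4 motifs was present at 246 members (42.6%), and 79 members had both GACGCA and ACGCAG, whose letters overlap. The windows of rpl-3, eelo-2, atfs-1 and asb-2 printed above are examples.

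Other motifs past the threshold on the high side followed, some of them with calls that depend on the processing. CCCTC was found at 17.2%, against 5.72% and 6.59% of flanks (16.2% of all summits, 7.05% of gaps without). GCGCGC was found at 9.71%, against 0.347% and 0.693% (7.61% and 1.12%), and TGACG, which overlaps GACGCA by 4 letters, at 19.6%, against 9.19% and 11.6% (19.6% and 9.26%). GGGCGG, the Sp1 GC box, was found at 5.55%, against 0.867% and 0.520% (5.48% and 1.99%), and CTCCGCC, which shares 5 letters with it, at 2.95%, against 0.867% and 0.347% (2.87% and 1.15%). The E-box CACGTG was found at 4.68%, against 2.08% and 1.21% (3.86% and 1.48%), the E-box CAGCTG at 4.16%, against 1.39% and 1.56% (3.68% and 1.65%), and TGANTCA, the AP-1 site, at 6.41%, against 3.12% and 3.29% (7.24% and 3.53%). Under 6 alternatives the call was lost 5 times for CACGTG, each replicate alone included, 3 times for CTCCGCC, 2 times for CAGCTG (1 of these on replicate 2 alone) and 1 time for TGACG. The AP-1 call was lost with windows of 25 bp each side (adjusted exact p = 0.234) and in gaps over 500 bp alone (adjusted exact p = 0.171). Of the 18 calls against flanks, 11 were kept under all 6 alternatives. Summits are richer in G and C than the flanks, and the part of base composition in these differences was not tested.

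The 6 motifs that were less frequent at members were the following. None of them contains another, but AATAAA and TATAAA share 5 letters. The flanks are richer in A and T than the summits, and the part of base composition in these differences was not tested either. The run TTTTTT was found at 22.2%, against 43.2% of upstream and 37.3% of downstream flanks (24.4% of all summits, 48.2% of gaps without; adjusted exact p = 8.50e-08). AATAAA, the polyadenylation signal that marks the end of a gene, was found at 14.9%, against 30.5% and 25.6% (13.8% and 25.8%). TATAAA, the TATA box, was found at 4.51%, against 14.2% and 10.9% (4.56% and 13%), and TAATTA, a homeodomain site, at 1.21%, against 6.41% and 4.85% (1.62% and 6.18%), a call that was lost on the peaks of replicate 1 alone (adjusted exact p = 0.795) and with windows of 25 bp each side (adjusted exact p = 0.0603). Also lower were TTTCAG at 5.55%, against 20.8% and 25.1% (5.29% and 17%; adjusted exact p = 1.37e-14), and GAANNTTC, the heat shock element unit, at 2.08%, against 6.76% and 4.68% (2.83% and 7.46%). The heat shock element call was lost under 5 of 6 alternatives, each replicate alone included.

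The site known for NR4A receptors was rare at members. AAAGGTCA was found at 5 of 577 members (0.867%, 0.371 to 2.01%), against 0.173% of upstream and 0.347% of downstream flanks (adjusted exact p = 0.473), with 0.735% of all summits and 0.330% of gaps without. The 5 lay upstream of Y73C8B.2, F55G11.8, F37C4.5, skr-21 and hex-2, with signals of 58.6, 57.2, 44.8, 33.8 and 32.6. Of these, the member of hex-2 ranked 809 in replicate 1 but 29144 in replicate 2, and that of skr-21 ranked 10235 and 1293. The core AGGTCA was found at 23 members (3.99%, 2.67 to 5.91%), against 2.08% in each flank (adjusted exact p = 0.113), with 3.71% of all summits and 2.91% of gaps without. Neither passed the test on the joint list. On the peaks of replicate 1 alone the core did pass, 2.98 points above the mean of the flanks (adjusted exact p = 0.0167), and on those of replicate 2 alone it was 2.71 points above and did not (adjusted exact p = 0.0705). Most members therefore had no match to the NR4A monomer letters within 50 bp of the summit. The remaining 4 motifs did not pass either: CCAAT (15.4%; 15.7% of all summits and 18.8% of gaps without), GTAAACA (3.29%; 3.16% and 1.55%), TGATAA (9.53%; 9.78% and 11.4%) and CCGGAA (1.21%; 1.43% and 3.81%).

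**Figure D4:**
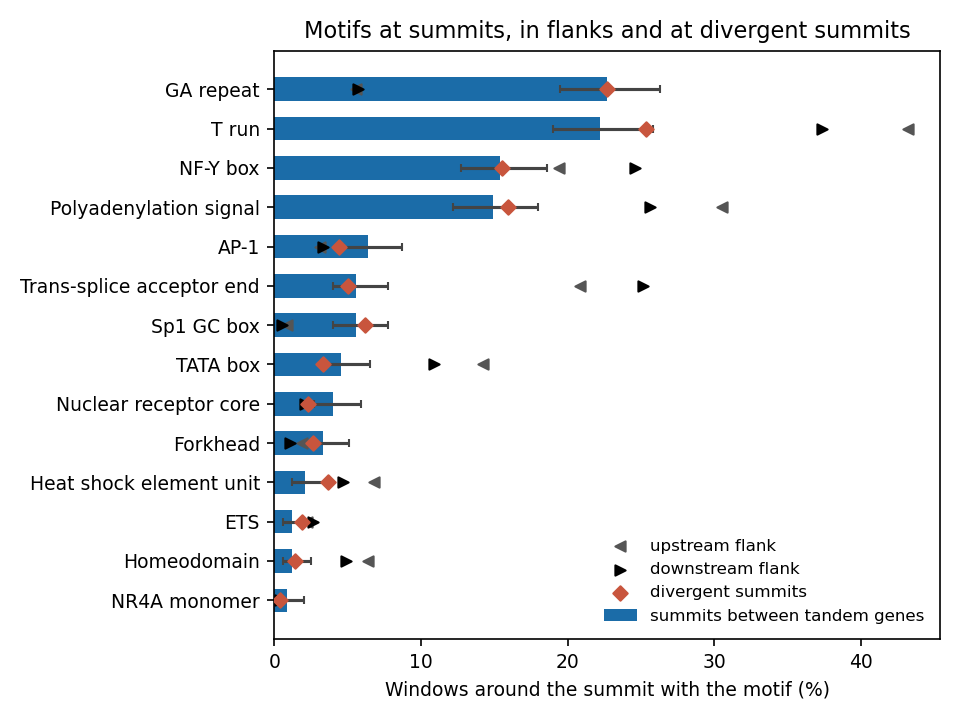
Share of windows of 101 bp with the motif (%, horizontal axis) at members (bars, with Wilson 95% intervals), in the upstream and downstream flanks (triangles) and at divergent summits (diamonds), for 14 of the motifs. The GA repeat is at 22.7% of members and under 6% of flanks, the T run and the trans-splice acceptor end lie well above the bars in the flanks, and the diamonds of divergent summits lie close to the bars.

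Set against divergent summits, members had much the same motifs. Of the 24 motifs, 0 (0%) differed past an adjusted p of 0.05 in two-sided Fisher's exact tests, and at an unadjusted p under 0.05 there was 1, TGATAA, the GATA site, at 9.53% of members and 5.93% of divergent summits (p = 0.0161, adjusted exact p = 0.387). No other tool was run. The GA repeat was at 22.7% of both. GACGCA was at 17.2% of divergent summits, ACGCAG at 16.5% and CGTCTC at 17.3%. A test that is not passed does not show that the shares are equal.

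Within the members, the GA repeat differed by gap length. It was found at 21 of 176 members in gaps of at most 500 bp (11.9%, 7.94 to 17.6%) and at 110 of 401 in longer gaps (27.4%, 23.3 to 32%), an odds ratio of 0.358 (two-sided Fisher's exact test, adjusted p = 1.92e-04 over 8 motifs). GACGCA was at 18.8% and 18.7% (odds ratio 1, adjusted exact p = 1). ACGCAG was at 14.2% and 20.9% (adjusted exact p = 0.172), and CGTCTC at 14.8% and 20.2% (adjusted exact p = 0.211). The T run went the other way, with 28.4% and 19.5%, and did not pass (adjusted exact p = 0.0881). This comparison was added after the data were seen. By signal, the GA repeat was at 23.3% of members in the stronger part of the list and 22.1% in the weaker part, and GACGCA at 19.0% and 18.4%.

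Because both neighbours of a member are read in the same direction, the strand of a motif has a meaning that it lacks at divergent summits. For the 18 motifs that are not palindromes, members with the motif on the sense strand alone were counted against those with it on the antisense strand alone, in two-sided exact binomial tests adjusted over the 18. Of these, 4 (22.2%) passed. The run TTTTTT was on the sense strand alone at 85 members and on the antisense strand alone at 35 (70.8% sense, adjusted exact p = 1.03e-04). CCAAT was on the sense strand at 60 and the antisense strand at 25 (70.6%, adjusted exact p = 0.00168). CCCTC was at 64 and 33 (66.0%, adjusted exact p = 0.0129), and GGGCGG at 8 and 23 (25.8%, adjusted exact p = 0.0480). The T run, CCAAT and CCCTC thus read mostly along the genes and the GC box mostly against them. These tests were against an even split and did not allow for base composition. Over all 577 summit windows the sense strand was itself uneven. It held 29.7% T, which was more than A, and 24.9% C against 20.5% G. The part of this skew in the 4 strand calls was not tested. The pyrimidine-rich CGTCTC did not pass (56.6% sense, adjusted exact p = 0.286). With the stronger part of the list alone, the call was lost for CCCTC (adjusted exact p = 0.0639) and for the GC box (adjusted exact p = 0.126). The GC box call was also lost with summits inside noncoding genes left out (adjusted exact p = 0.0843).

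The same strand shares were counted in the surroundings. For the T run, 60.6% of upstream flanks, 61.2% of downstream flanks and 58.4% of gaps without a summit had the sense orientation. For CCAAT these shares were 49.1%, 56.7% and 58.4%. For CCCTC they were 75.8%, 73.7% and 69.3%, which is above the 66.0% at members. For the GC box the flanks had 5 and 3 windows in all, too few for a share, and the gaps without had 39.1%. The difference between members and their surroundings was not tested. With windows of 25 bp each side no motif of the 18 passed (adjusted exact p = 0.0878 for each of the first 3 and 0.375 for the GC box), and the sense shares were 72.1% for the T run, 69.0% for CCAAT, 68.6% for CCCTC and 25% for the GC box. The GA repeat was on the sense strand at 49 members and the antisense strand at 77 (38.9%, adjusted exact p = 0.0569), beside 33.5% in gaps without a summit. It passed on replicate 2 alone (34.1%, adjusted exact p = 0.00236), on replicate 1 alone (36.7%, adjusted exact p = 0.0253) and in gaps over 500 bp (35.2%, adjusted exact p = 0.0290), so this call depends on the list.

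**Figure D5:**
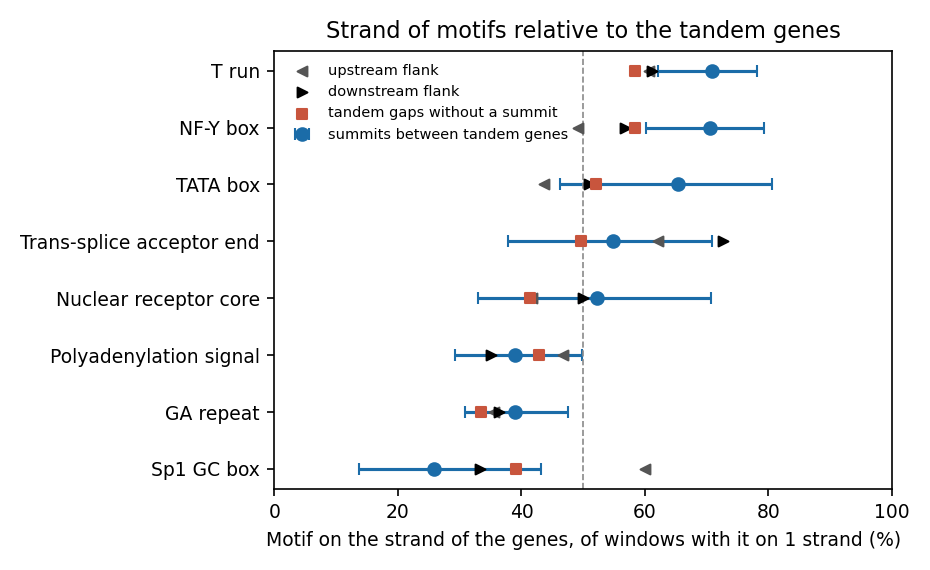
Share of members with the motif on the sense strand among those with it on 1 strand (%, horizontal axis; circles with Wilson 95% intervals), with the same share in the flanks (triangles) and in tandem gaps without a summit (squares). The dashed line marks an even split; the T run and the NF-Y box (CCAAT) lie at 70.8% and 70.6% sense at members, to the right of their flanks, and the Sp1 GC box lies at 25.8%.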

How the data were processed

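Peak lists of 1 group of 2 biological replicates were analysed. Per the deposited text listings, the authors called relaxed peaks for each replicate against a control alignment and thresholded the joint peaks by the irreproducible discovery rate (IDR), in build ce11. The names of the aligner and of the peak caller are not given in the sources here used. Each peak carries the authors' deposited signal value, on a scale that is not given, and a deposited −log10 q-value, which was read but not used for ranking. Not analysed here were the control, the signal tracks and the ce10 lists. Read depth is unknown, so the precision of a single peak cannot be stated.

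Genes came from Ensembl release 115 of WBcel235 and sequence from RefSeq's WBcel235. The summit was the peak start plus the deposited offset. The 1000 bp limit, neighbours and gaps used protein-coding genes alone. Motifs were sought within 50 bp of the summit and in equal windows centred 300 bp to each side. For each replicate the 2720 strongest nuclear peaks were taken, with an overlap of at least 1 bp. Tests were the exact binomial, McNemar's exact and Fisher's exact test, two-sided, with Benjamini-Hochberg adjustment within each family and a threshold of 0.05. Their calculation was tested on simulated data. Shares carry Wilson 95% intervals, and densities in single bins exact Poisson ones. Software was Python 3.11.15 with matplotlib 3.10.9, scipy 1.17.1, pandas 2.3.3 and numpy 2.4.6.

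Gene lists were made from gene symbols. The rule of membership, the gene lists and the motifs were chosen with earlier results of these data known, and several motifs are short words that earlier counts had ranked high at these summits, so their rise at summits is no independent finding. The genes named were those of the 25 strongest members, the 3 strongest in each list, the 5 strongest in gaps of at most 500 bp, the 5 strongest gaps with a pair of members, and the summits next to the limit. Sequences by rule were the 6 strongest members outside chromosome I and the 3 strongest of these in gaps of at most 500 bp. Other genes were named after their values were seen. Alternatives changed the list, the limit, the windows, the overlap and the comparison, and used each replicate alone.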

Additional observations from a re-analysis of the deposited data

How the results depend on the processing

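Of 44 alternative values for the main results, 35 kept their direction and their side of the threshold or stayed within 1.5 times. The stronger part of the list, ranks 1 to 1360, gave 305 members in 303 gaps. With 1 replicate alone there were 535 to 554 members in 527 to 545 gaps, a density ratio of 0.564 to 0.584, a share nearer the downstream 5′ end of 56.6 to 57.1% that passed the test in both cases (p = 0.0316 and p = 0.0153, exact binomial test), 15 to 16 motifs past the threshold against flanks, 0 against divergent summits and 6 to 7 for strand. The strand count was 0 with windows of 25 bp each side and 7 in gaps over 500 bp alone. The odds of being strong in both replicates were 0.823 (Fisher's exact test, p = 0.0800) with overlap of 0.5 of both peaks, and 1.03 (p = 0.777) against all other thresholded summits. For single motifs, 203 of 242 values kept direction and side, 27 no longer passed, 11 newly passed and 1 changed direction: the GA repeat share of members minus that of divergent summits was -2.35 to 1.59 points with 1 replicate left out (adjusted exact p = 0.580 without replicate 2). Calls against flanks were lost under some alternative for 7 of 18 motifs: CACGTG and the heat shock element unit (5 of 6 alternatives each), CTCCGCC (3), CAGCTG, AP-1 and homeodomain sites (2 each) and TGACG (1). The nuclear receptor core passed without replicate 2 (2.98 points, adjusted exact p = 0.0167). The causes were not tested.

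No paired analysis was possible because there was only 1 group. Peak lists without read counts do not show which weak peaks depth left out, and short gaps are narrower than the peaks.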
